A study of Mus musculus with 64 samples.

Results

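The genes described here are 42 cell cycle and proliferation genes, taken from a list of names that spans DNA replication, nucleotide supply, the G1/S switch and mitosis. Of these, 39 had a named probe on the array, with 69 probes between them, out of 16593 named genes and 25697 probes. Mki67, Ccnb1 and Aurkb, which had no named probe in the annotation used, are not analysed here. The series compared mice without the nucleosome-binding protein HMGN2, or without both HMGN1 and HMGN2, with wild types in brain, liver, spleen and thymus. Hmgn2-/- mice were set against wild types whose strain label is C57BL/6, and Hmgn1-/-n2-/- mice against wild types whose strain label is C57BL/6J. Each of these 4 groups held 4 male mice of 21 weeks, every mouse gave all 4 organs, and 64 arrays of 1 colour resulted. The labels give both deletions as homozygous and name no tissue-restricted Cre driver. The strain label differs between the cohorts, so cohort and strain cannot be told apart, and each mutant is compared only with the wild types of its own cohort.

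A cell that divides switches on its genes in waves. E2F factors drive the replication and nucleotide synthesis genes at the G1/S border. Later a complex of MuvB with B-Myb and FOXM1 drives the mitotic genes through the cell cycle homology region (CHR) of their promoters. Many of these promoters also hold CCAAT boxes. Most adult brain and liver cells rest outside the cycle, thymocytes divide during their maturation, and the mouse spleen keeps dividing erythroid and lymphoid cells in adult life. HMGN proteins bind nucleosomes and are known as modulators of chromatin structure. In whole organs, fewer dividing cells and less RNA per cell cannot be told apart.

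The 4 genes with the smallest p-values in the Hmgn2-/- thymus were all mitotic or chromosome genes, and their promoters are shown because such genes share the motifs named above. The sequences are from RefSeq (GRCm38.p6), run 5′ to 3′ from 250 bases before to 50 bases after the annotated start, and have matches to TTTGAA or TTCGAA (CHR), CCAAT, and TTTCCCGC or TTTGGCGC (E2F), on either strand, in capitals. No capitals of different motifs overlap.
Kif11, chr19:37376132-37376431, plus strand: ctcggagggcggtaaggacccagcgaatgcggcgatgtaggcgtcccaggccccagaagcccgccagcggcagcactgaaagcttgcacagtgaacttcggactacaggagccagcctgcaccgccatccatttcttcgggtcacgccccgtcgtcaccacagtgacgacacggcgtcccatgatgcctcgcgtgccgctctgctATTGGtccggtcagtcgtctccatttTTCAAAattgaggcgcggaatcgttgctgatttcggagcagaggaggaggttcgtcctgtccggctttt
Top2a, chr11:99024140-99024439, minus strand: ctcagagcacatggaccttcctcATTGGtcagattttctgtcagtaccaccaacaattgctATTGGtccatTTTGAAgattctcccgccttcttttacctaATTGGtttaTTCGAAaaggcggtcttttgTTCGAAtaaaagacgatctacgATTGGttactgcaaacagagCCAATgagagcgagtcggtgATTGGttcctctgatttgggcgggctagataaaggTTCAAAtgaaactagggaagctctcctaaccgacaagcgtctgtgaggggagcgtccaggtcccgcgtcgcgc
Prc1, chr7:80294201-80294500, plus strand: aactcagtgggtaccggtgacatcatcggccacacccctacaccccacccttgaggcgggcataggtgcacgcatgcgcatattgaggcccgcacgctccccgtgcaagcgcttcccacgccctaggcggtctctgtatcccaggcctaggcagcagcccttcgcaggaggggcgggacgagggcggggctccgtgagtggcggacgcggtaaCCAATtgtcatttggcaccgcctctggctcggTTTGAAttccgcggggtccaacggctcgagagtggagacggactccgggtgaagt
Nusap1, chr2:119618048-119618347, plus strand: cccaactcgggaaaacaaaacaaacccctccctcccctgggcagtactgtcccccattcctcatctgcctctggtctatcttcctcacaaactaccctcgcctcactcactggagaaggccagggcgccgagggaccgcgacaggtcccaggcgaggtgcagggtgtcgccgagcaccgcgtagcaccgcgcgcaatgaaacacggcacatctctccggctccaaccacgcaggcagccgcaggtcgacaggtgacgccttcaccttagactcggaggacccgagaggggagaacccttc
For Prc1, which has 2 windows in the table, the first is shown. The Kif11 and Prc1 windows each held 1 CHR match and 1 CCAAT match, the Top2a window held several of both, and none of these letters was found in the Nusap1 window. No E2F match was found in the 4 windows. Of 27025 promoters in the table, 19.4% held a CHR match, 37.9% a CCAAT match and 1.63% an E2F match. Among the 34 listed genes with a promoter in the table, 17 held a CHR match, 25 a CCAAT match and 6 an E2F match. A match is a description of the letters and not evidence of binding.

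Before the comparisons, the arrays were checked against their labels. Hmgn2 was at 12.76 to 12.91 on the log2 scale on all 8 wild-type thymus arrays and at 4.64 to 7.20 on the 8 mutant ones. In brain and liver every mutant array was at 5.11 or below and every wild-type array at 8.65 or above. In the spleen 2 libraries went against their labels: the library labelled C57BL/6J wild type replicate 4 had an Hmgn2 level of 6.33, and the library labelled Hmgn1-/-n2-/- replicate 1 had 12.13. Counts of called cell cycle genes in the spleen, and the Ccng2 difference there, are therefore also given without those libraries. Unless stated, other spleen values, the organ comparisons and the tests across organs keep the libraries as labelled. The Hmgn1 probe stayed bright in the double mutants (11.66 to 11.82 in the thymus) and does not check that deletion. In the Hmgn2-/- thymus it was at 11.63 to 11.78, lower than in its wild types by -0.34 (adjusted p = 0.0137). Between 9550 and 13411 probes were detected per array (detection p under 0.01). Hepatocyte markers summed to 71680 or more on every liver array, neuron and glia markers to 18840 or more on every brain array, and B cell markers to 18420 or more on every spleen array. The immature thymocyte list reached 29720 or more on every thymus array, but Cd8a, one of its defining genes, was not detected there, nor was Snap25 in the brain or Pax5 in the spleen. No 2 arrays held identical values.

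In the wild types, the cell cycle genes were high in thymus and spleen and low in brain and liver. A gene was tested in an organ if its probe was detected on at least 4 of its 16 arrays, wild types and mutants together. This left 34 of the 39 in the thymus and 33 in the spleen, against 17 in the brain and 15 in the liver. Those are 87.2%, 84.6%, 43.6% and 38.5% of the listed genes, beside 54.5%, 55.7%, 55.2% and 46.1% of all named genes. Bub1, Ccnb2, Cenpe, Kif20a and Nuf2 were tested in no organ. Not tested in the spleen was also Ccna2, the S phase and G2 cyclin. The genes untested in both brain and liver included the mitotic kinase genes Cdk1 and Aurka and the replication genes Mcm3, Mcm7 and Cdc6. They also included the spindle genes Kif11, Kif23, Tpx2 and Nusap1, the kinetochore gene Ndc80, and Cdc25c, Rrm2, Top2a and Ube2c. In the brain E2f2 and Tk1 were untested too, and in the liver Bub1b, Ccne1, Ccne2 and Foxm1.

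**Figure D1:**
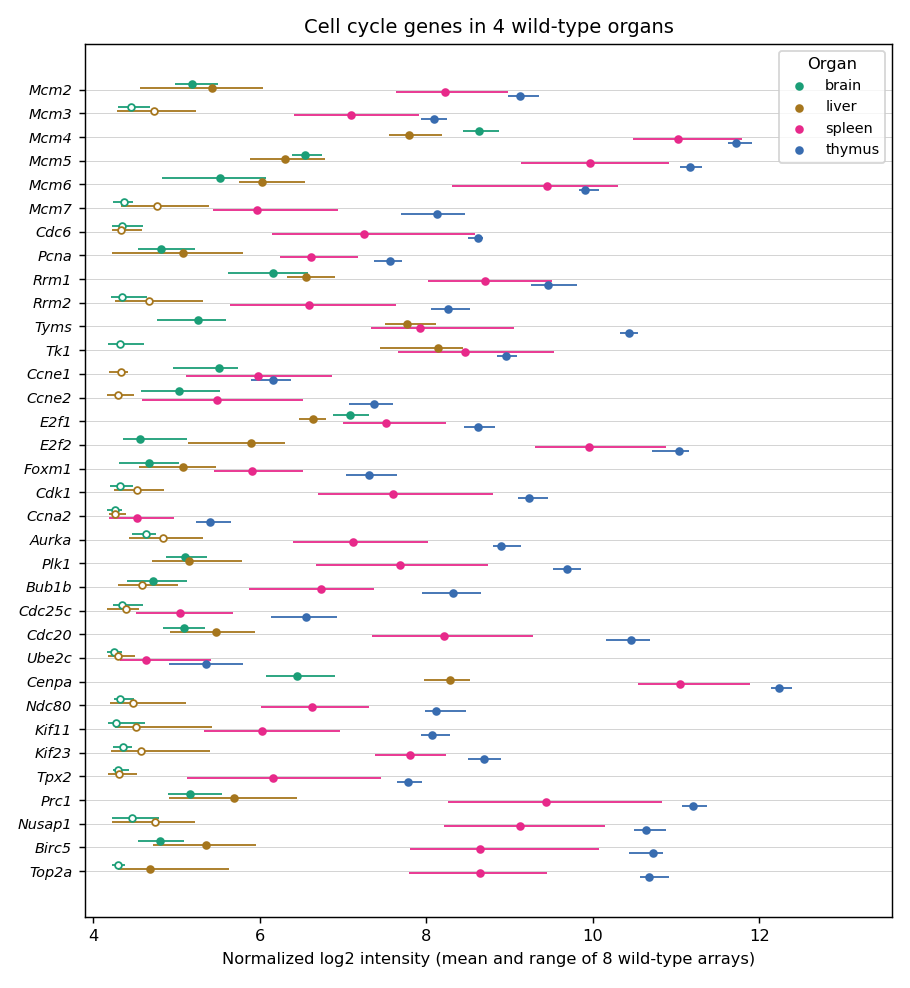
Normalized log2 intensity (horizontal) of the 34 cell cycle genes (rows) in wild-type brain, liver, spleen and thymus. Points are means and lines the range of 8 arrays, and open points mark organs where no array detected the gene. Thymus means lie to the right of spleen means for every gene, while the ranges overlap for some, and the liver points of Tk1 and Tyms lie beside their spleen points.

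When the 32 wild-type arrays were normalized together and tested with limma, 33 of 34 cell cycle genes were higher in the thymus than in the spleen and none lower. Of all 11068 genes tested, 33.3% were called higher and 29.6% lower (adjusted p under 0.05). The median difference was 1.45 on the log2 scale over the cell cycle genes and 0.0331 over all genes. Ccne1, the cyclin E gene, was the 1 not called: its mean ± SD was 6.16 ± 0.166 in the thymus and 5.97 ± 0.652 in the spleen (n = 8 each).

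Tyms, the thymidylate synthase gene, had the largest thymus to spleen difference called, at 2.51 ± 0.166 (SE, adjusted p = 4.15e-14). Its thymus arrays ran from 10.33 to 10.54 with a median of 10.45, and its spleen arrays from 7.34 to 9.05 with a median of 7.66. The groups did not overlap. Mcm7, a subunit of the replicative helicase, was higher in the thymus by 2.16 ± 0.171 (adjusted p = 2.83e-12). Kif11, the motor that pushes spindle poles apart, was higher by 2.04 ± 0.183 (4.41e-11), Aurka, the centrosomal kinase gene, by 1.78 ± 0.169 (1.63e-10) and Ndc80 by 1.49 ± 0.123 (7.21e-12).

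Against brain and liver the differences were larger: all 34 cell cycle genes were higher in the spleen than in the brain, where 43.8% of all genes were, and 32 were higher in the spleen than in the liver, where 44.9% were. None was called lower under the quantile scaling used, while 38.4% and 32% of all genes were. Ccna2 and Ube2c, though called, were detected on 2 of 8 spleen arrays and on no brain or liver array, so no fold is given for them. The median differences were 2.56 and 2.22, beside 0.061 and 0.112 over all genes. Of the 34 genes, 14 were detected on no brain or liver array and passed the filter only through spleen or thymus. They could hardly come out lower there, so the filter partly set these counts and medians. Where a probe was not detected on any array of an organ, a fold is only a lower bound. Nusap1, which bundles spindle microtubules, was at least 19.1-fold higher in spleen than in brain and at least 12.6-fold higher than in liver. Kif23, a motor of cytokinesis, was at least 7.62-fold and 5.04-fold higher. E2f2, an E2F activator, was 16.7-fold higher in spleen than in liver (log2 difference 4.07 ± 0.178, adjusted p = 3.84e-19). It was detected on all 8 spleen arrays and on 1 of 8 brain arrays, with means of 9.96 and 4.57. Cenpa, the centromeric histone, was 24.3-fold higher in spleen than in brain. Mcm5 was 12.7-fold and Mcm4 9.40-fold higher in spleen than in liver, and Mcm6 was 15.3-fold higher in spleen than in brain.

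Among the nucleotide supply genes, Tk1 and Tyms had liver levels close to those of the spleen, by the brightest probe of each. Over the 16 arrays of each organ, 1 other Tk1 probe was detected on 15 liver and 16 spleen arrays. The remaining Tk1 probe was detected on 1 and 9, and another Tyms probe on 11 and 16. Levels of these other probes were not compared between organs. Tk1, the thymidine kinase gene, ran from 7.45 to 8.44 with a median of 8.26 on the 8 liver arrays. On the spleen arrays it ran from 7.66 to 9.54 with a median of 8.37. These ranges overlapped, and Tk1 was not called between the organs. In the brain Tk1 was not detected on any array, and the liver level was at least 9.61-fold higher. Tyms lay between 7.51 and 8.12 with a median of 7.76 in the liver, within its spleen range, and was 5.68-fold higher in liver than in brain (adjusted p = 9.71e-15). Cenpa was also higher in liver than in brain, by 3.57-fold, and E2f2 was detected on 7 of 8 liver and 1 of 8 brain arrays. In the opposite direction, Mcm4 was 1.78-fold and E2f1 1.37-fold higher in brain than in liver, and Ccne1 at least 1.03-fold. In all, 4 of the 34 genes were called higher in brain (40.9% of all genes) and 9 higher in liver (38.5%), and 14 were not detected on any array of either organ. The 9 include Mcm7, which is also among those 14 and has no fold. Scaling by the array median in place of quantiles moved the brain to liver difference of all genes by -0.402 and the spleen to liver difference by -0.428. Under it 3 cell cycle genes were higher in brain and 28 higher in liver, so the split between these organs depended on the scaling. These calls include some of the 14 genes detected in neither organ, for which a difference is not one of measured expression. Between spleen and liver, 31 of the 34 genes had a higher mean in spleen under median scaling, in place of 34. The spleen minus liver differences of Tk1 and Tyms, 0.33 and 0.16, were smaller in size than the shift of -0.428. Their differences under median scaling are not given here.

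For the Hmgn2 deletion, cell cycle genes passed the test in the thymus and in no other organ. Of 34 genes tested in the Hmgn2-/- thymus, 4 rose and 2 fell, which is 17.6% beside 15.5% of all genes (1405 of 9041; limma, adjusted p under 0.05). Of all genes 7.22% were called higher and 8.32% lower. The share was thus close to that of all genes. Another 7 had an unadjusted p under 0.05 but missed the threshold. The share of all genes that did so is not given here, so this count shows nothing particular to the cell cycle genes. The median change of the 34 was 0.11, and of all genes 0.0204. Groups did not overlap for 4 genes that were higher and 2 that were lower, beside 15.3% of all genes in either direction.

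The 4 genes that rose act on chromosomes or the spindle. Kif11 read 8.08, 8.39, 8.42 and 8.08 on the wild-type arrays and 8.51, 8.81, 9.01 and 8.77 on the Hmgn2-/- arrays. Every mutant array was above every wild-type array, and the difference was 0.53 ± 0.115 (SE), a 1.45-fold rise (adjusted p = 0.00598). Top2a, the topoisomerase that untangles sister chromatids, read 10.68, 10.65, 10.88 and 10.60 in wild types and 10.91, 11.06, 11.26 and 11.50 in mutants. It also had no overlap and rose by 0.48 ± 0.122, or 1.40-fold (adjusted p = 0.0139).

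Prc1, which cross-links the microtubules of the central spindle, read 11.15, 11.26, 11.22 and 11.04 in wild types and 11.58, 11.47, 11.81 and 11.33 in mutants. The mutants were above the wild types without overlap, by 0.38 ± 0.0989 (adjusted p = 0.0165). Nusap1 read 10.55, 10.84, 10.85 and 10.59 in wild types and 11.21, 11.10, 11.08 and 10.94 in mutants. Again no value overlapped, and the rise was 0.38 ± 0.112 (adjusted p = 0.0316). The other probes of Nusap1 gave 0.33 and 0.32, with adjusted p of 0.185 and 0.0884.

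Of the genes that fell, Aurka read 8.95, 9.24, 8.98 and 9.01 in wild types and 9.00, 8.68, 8.57 and 8.42 in mutants. Mutant replicate 1 lay within the wild-type range and the other 3 below it, and the fall was -0.38 ± 0.114 (adjusted p = 0.0342). Tyms read 10.47, 10.38, 10.37 and 10.47 in wild types and 10.16, 10.16, 10.08 and 10.19 in mutants. All mutant arrays were below all wild types, with a difference of -0.28 ± 0.0875, or 0.826-fold (adjusted p = 0.0417). Another Tyms probe, detected on all 16 arrays, gave -0.50 ± 0.115 (adjusted p = 0.00942). A pair of Tyms probes detected on only 4 and 6 arrays gave 0.21 and 0.15, neither past the threshold.

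**Figure D2:**
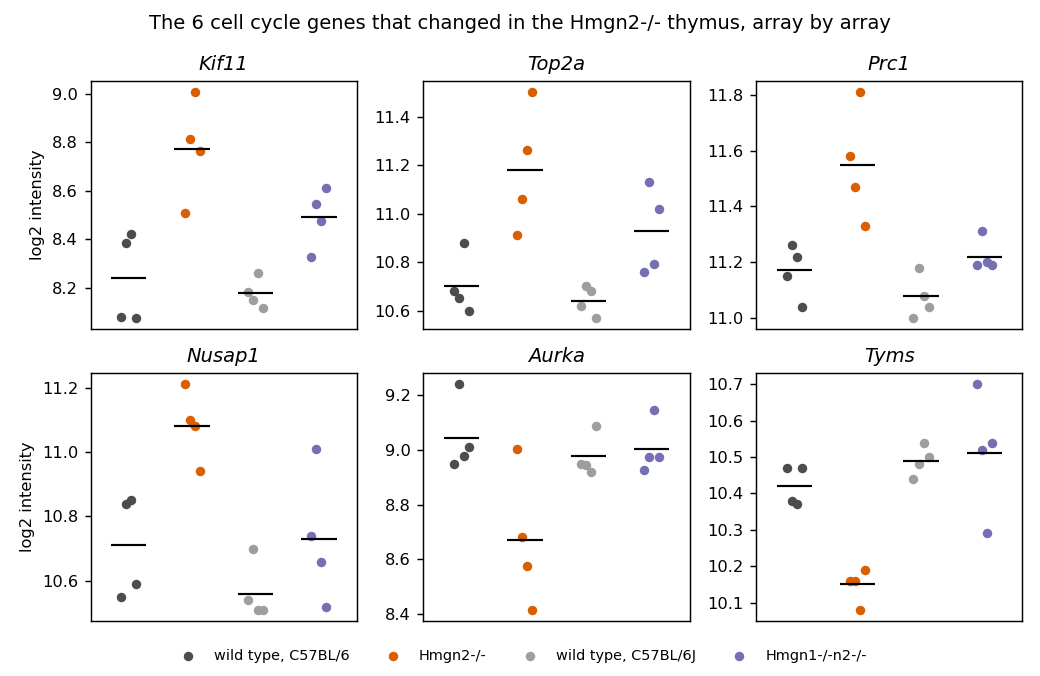
Normalized log2 intensity (vertical) of the 6 cell cycle genes that changed in the Hmgn2-/- thymus, with 1 point per array, 4 arrays a group, and bars at group means. The Hmgn2-/- arrays of Kif11, Top2a, Prc1, Nusap1 and Tyms lie apart from their wild types, while 1 Aurka array does not. In the Hmgn1-/-n2-/- arrays only Kif11, Top2a and Prc1 of these 6 lie apart from the C57BL/6J wild types.

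The call of these 6 genes depended on the arrays and the scaling. Without C57BL/6 wild type replicate 4 or without Hmgn2-/- replicate 3, 2 genes were called. Without Hmgn2-/- replicate 4, 11 were called, 9 higher and 2 lower. With only the 8 arrays of this comparison in the fit, none passed, and with the replicate number as a block 3 did. Under median scaling 1 gene rose (Kif11) and 4 fell (Aurka, E2f1, Tk1 and Tyms), and of all calls 35.5% were higher, in place of 46.5%. Kif11 remained past the threshold in 18 of 19 other settings, Top2a in 17 and Tyms in 8.

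By role, the helicase and fork genes leaned upwards without passing the test. Of 8, 7 were higher in the Hmgn2-/- thymus, with a median of 0.202, and the nearest to a call was Mcm6 at 0.43 ± 0.145 (adjusted p = 0.0541). Mcm6 read 9.91, 10.05, 10.12 and 9.91 in wild types and 10.67, 10.54, 10.66 and 9.83 in mutants. Mutant replicate 4 lay below every wild type and the other 3 above. The other Mcm6 probes gave 0.36, 0.25 and 0.32. The nucleotide supply genes went the other way, with 3 of 4 lower and a median of -0.199. Besides Tyms, Tk1 was at -0.29 (adjusted p = 0.0617).

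In the G1/S group E2f1, an activator of replication genes, was at -0.26 (adjusted p = 0.0578) with groups that did not overlap, and Ccne2 was at 0.38. The partners of the anaphase-promoting complex, Cdc20 and Ube2c, were at -0.20 and -0.29, neither called. The 4 Cdc20 probes disagreed, with -0.20, -0.24, -0.06 and 0.31. All 3 probes of Birc5, the survivin gene of the chromosomal passenger complex, were lower, at -0.14, -0.39 and -0.28. Of these the second passed the threshold when every probe was entered (adjusted p = 0.0297). In the spindle group 4 of 6 genes were higher, among them Tpx2 at 0.42, and Kif23 and Birc5 were lower.

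Other properties of the Hmgn2-/- thymus arrays moved with these values, and their part in the changes was not tested. The 95th percentile of raw intensity was 806.8 to 933.4 on the Hmgn2-/- arrays and 1072 to 1257 on their wild types, with no overlap. The immature thymocyte list (13 of 14 genes detected, all but Cd8a) summed to 34420 to 38550 against 29720 to 32870, also with no overlap. The erythroid list (9 and 8 of 15 genes detected) summed to 2166 to 6282 against 5896 to 16920. The neutrophil and granule list (10 and 9 of 14) summed to 710.5 to 1108 against 1156 to 1245, and the B cell list (8 of 11 in both) to 1922 to 2838 against 2761 to 2939. Of those lists Gata1 and Klf1, which define erythroid precursors, and Prtn3 and Mmp8 were not detected in either group. No other thymus group had a raw 95th percentile as low, the C57BL/6J wild types and double mutants being at 1118 or above.

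In the Hmgn1-/-n2-/- thymus no cell cycle gene passed the test (limma, 0 of 34, beside 0.232% of all genes), and 6 had an unadjusted p under 0.05 (8.99% of all genes did). The values leaned one way: 31 of 34 were higher than in the C57BL/6J wild types, with a median of 0.142 beside 0.00762 for all genes. For 7 of them every mutant array was above every wild type, and for none below, where 9.35% of all genes did not overlap in either direction. These 7 were Kif11, Top2a, Prc1, E2f1, E2f2, Foxm1 and Mcm6. The median level of the 34 genes was 8.842 to 8.915 on the C57BL/6J wild-type arrays and 8.88 to 9.053 on the double mutant arrays. On the C57BL/6 wild-type arrays it was 8.881 to 9.103, a range like that of the double mutants.

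Foxm1, the mitotic transcription factor, read 7.46, 7.40, 7.31 and 7.19 in these wild types and 7.81, 7.83, 7.51 and 7.72 in the double mutants. All double mutants were higher, by 0.38 ± 0.124, but the adjusted p was 0.298. Kif11 read 8.18, 8.15, 8.26 and 8.12 in wild types and 8.33, 8.55, 8.48 and 8.61 in double mutants, a difference of 0.31 ± 0.115 (adjusted p = 0.385). Bub1b, a spindle checkpoint kinase gene, was at 0.33, with an overlap. E2f2, which lies 2.21 Mb from Hmgn2 on chromosome 4, was at 0.21 (adjusted p = 0.469). With array weights 1 cell cycle gene was called, and under median scaling 28 of 34 were higher. The immature thymocyte list summed to 32460 to 34950 in the double mutants and 29910 to 33030 in their wild types. The neutrophil and granule list summed to 963.6 to 2266 (11 of 14 genes detected) and 1537 to 7384 (13 of 14). Without overlap, the mature T cell list summed to 1453 to 2224 (6 of 9) in the double mutants and 2363 to 2695 (7 of 9) in their wild types, and the plasma cell list to 2250 to 2540 (3 of 6) and 2638 to 2939 (5 of 6). The part of these cells in the values was not tested.

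**Figure D3:**
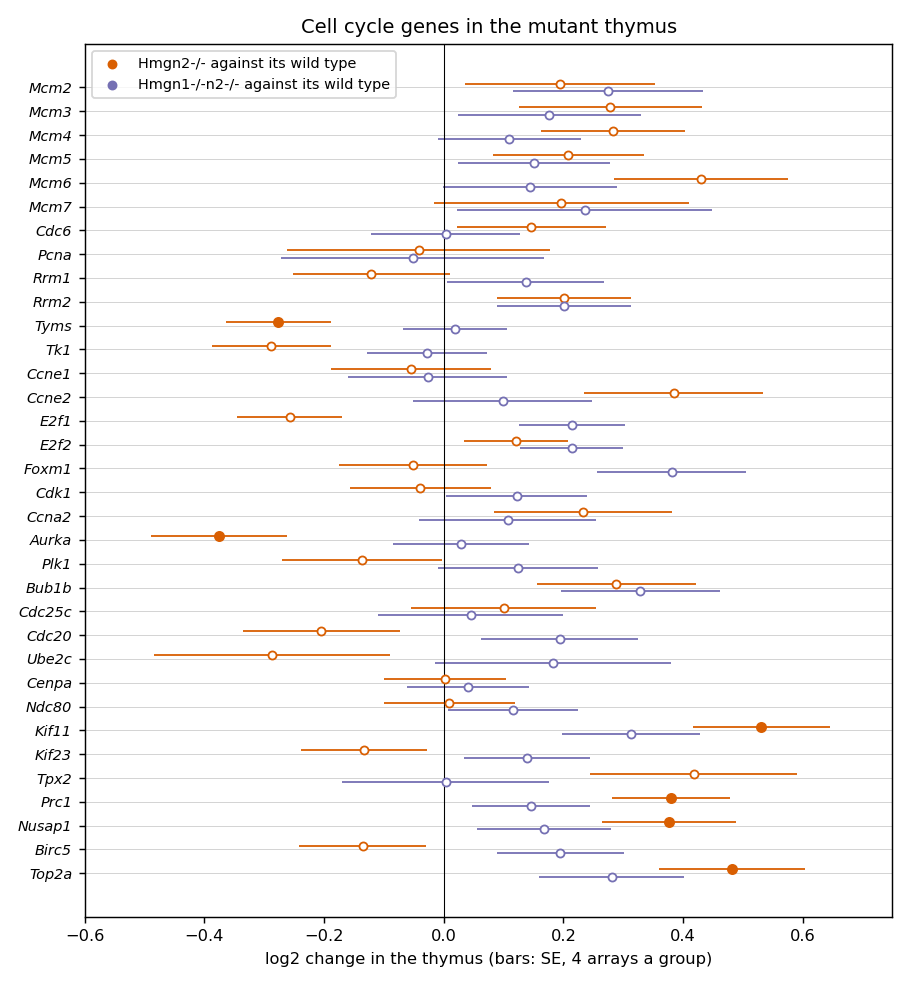
log2 change (horizontal, bars are SE, 4 arrays a group) of 34 cell cycle genes (rows) in the thymus of each mutant against the wild types of its cohort. Filled points passed adjusted p under 0.05. All filled points belong to Hmgn2-/-, and 31 of the 34 Hmgn1-/-n2-/- points lie above 0.

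Both thymus comparisons used separate wild types. Of the 34 genes 20 were higher in both mutants, 3 lower in both and 11 lower in Hmgn2-/- and higher in Hmgn1-/-n2-/-. Whether the changes differed was tested by the double minus single mutant effect, and no cell cycle gene passed (limma, 0 of 34, beside 1.74% of all genes called; 6 had an unadjusted p under 0.05, as 17% of all genes did). The smallest p was that of E2f1, at 0.47 ± 0.125 (adjusted p = 0.0668). E2f1 read 8.81, 8.84, 8.80 and 8.95 in C57BL/6 wild types and 8.74, 8.64, 8.46 and 8.54 in Hmgn2-/- mice. It read 8.70, 8.58, 8.70 and 8.65 in C57BL/6J wild types and 8.99, 8.96, 8.74 and 8.80 in the double mutants. The single mutants were thus below and the double mutants above their own wild types, without overlap. Aurka followed at 0.40 (adjusted p = 0.211) and Foxm1 at 0.43 (0.219). Without Hmgn2-/- replicate 4, 4 genes passed, 2 in each direction, and without Hmgn2-/- replicate 1, 1 did.

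Between the wild types of the cohorts no cell cycle gene passed in the thymus. There, 30 of 34 cell cycle genes were lower in the C57BL/6J than in the C57BL/6 wild types, with a median of -0.0588 beside 0.00295 for all genes. By limma 0 of 34 were called and 2 had an unadjusted p under 0.05, beside 0.254% of all genes called and 7.18% at an unadjusted p under 0.05. Bub1b, at -0.38 ± 0.133 (adjusted p = 0.498), and E2f1, at -0.19, had no overlap, beside 9.07% of all genes. Under median scaling 23 of the 34 were lower. The same C57BL/6J arrays are the controls of the double mutants, so this lean and the upward lean of the double mutants are not separate results.

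In the spleen no cell cycle gene passed in either mutant (limma, 0 of 33, none with an unadjusted p under 0.05). In the same comparisons, with all libraries entered as labelled, 0% of all genes passed, so not even the deleted Hmgn2 did. The share of all genes without the 2 libraries against their labels is not given here. In Hmgn2-/- 29 of 33 were higher, with a median of 0.149 beside -0.0013 for all genes, and in Hmgn1-/-n2-/- 18 were higher, with a median of 0.0495. Single arrays set the sign of both medians. Without Hmgn2-/- replicate 3 the first was -0.141, it also fell below 0 without C57BL/6 wild type replicate 1 or 4, and without wild type replicate 2 it was 0.379. The second ran from -0.0777 to 0.181, below 0 without C57BL/6J wild type replicate 1 or 2 or double mutant replicate 2 or 3. The smallest p in Hmgn2-/- was that of Pcna, the sliding clamp, at 0.26 ± 0.227. In Hmgn1-/-n2-/- it was that of Ube2c (adjusted p = 0.546), whose mean was 4.98 with 2 of 4 arrays detected, against 4.45 with none detected in the C57BL/6J wild types. The interaction called none (0%), and between the wild types none passed (0.0325% of all genes), with Ndc80 at 0.41 and Tk1 at -0.56. No cell cycle gene had groups without overlap in Hmgn2-/- (2.35% of all genes), in Hmgn1-/-n2-/- (7.56%) or between the wild types (7.18%). Leaving out the 2 libraries against their labels changed none of these counts of called cell cycle genes.

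The spread of the cell cycle genes within spleen groups was large. The pooled within-group SD had a median of 0.538 over the 33 genes (0.319 to 0.91), and 0.225 over all 9237 genes tested. All 33 exceeded that median of all genes. In the thymus the same medians were 0.174 and 0.19, in the brain 0.198 and 0.203, and in the liver 0.267 and 0.211.

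The spread was shared by the genes and followed single arrays. The median level of the 33 genes was 7.26, 8.86, 8.67 and 7.32 on the C57BL/6 wild-type spleens, and 7.44, 8.06, 9.30 and 7.98 on the Hmgn2-/- spleens. It was 7.77, 7.58, 7.96 and 7.95 on the C57BL/6J wild types and 7.80, 7.99, 8.02 and 7.93 on the double mutants. The 3 high arrays were wild type replicates 2 and 3 and Hmgn2-/- replicate 3, and all other arrays lay at 8.06 or below. Those 3 had also the 3 highest erythroid list sums of the 16, at 64700, 57440 and 60170, where the others had 33160 to 50730. They had the 3 highest neutrophil and granule sums as well, at 35930, 37550 and 22560, where the others had 5172 to 19950. Their B cell sums were the 3 lowest, at 23760, 23520 and 18420, the next being 24380. The part of these cell types was not tested. Hmgn2-/- replicate 3 also had an exocrine pancreas sum of 190000, while wild type replicates 2 and 3 had 3448 and 4387. Another array with a high pancreas sum, labelled C57BL/6J wild type replicate 4, had 175200 and a cell cycle median of 7.95.

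**Figure D4:**
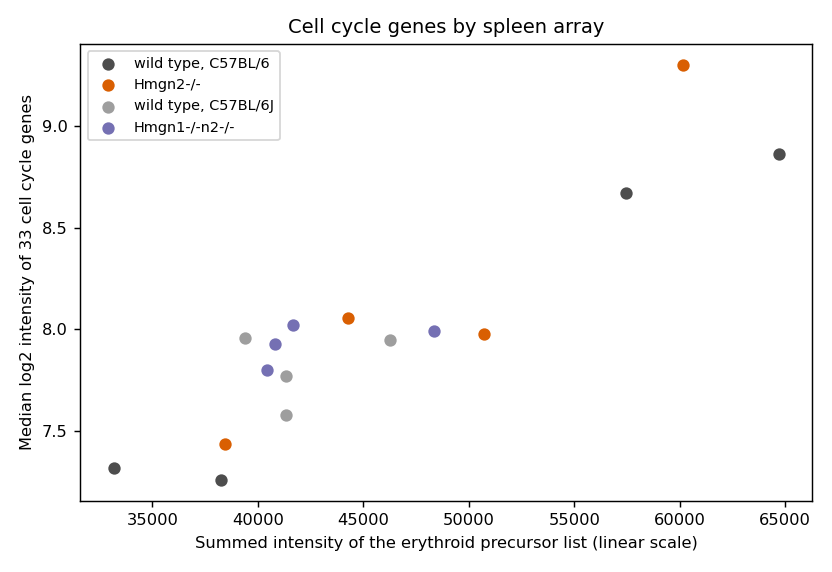
Median log2 intensity of 33 cell cycle genes (vertical) against the summed linear intensity of the erythroid precursor list (horizontal), 1 point per spleen array, 16 arrays coloured by labelled group. The 3 arrays with medians of 8.67, 8.86 and 9.30 are the 3 farthest to the right, and they come from 2 groups.

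In brain and liver, where few cell cycle genes were detected, none passed in any comparison (limma). For Hmgn2-/- the counts were 0 of 17 in brain and 0 of 15 in liver, with none at an unadjusted p under 0.05, beside 0.0218% and 0.0131% of all genes called. For Hmgn1-/-n2-/- they were 0 and 0, again with none at an unadjusted p under 0.05, beside 0.142% and 0.314%. The median changes lay between -0.034 and 0.0606. In the double mutant brain Tyms was at -0.28 ± 0.139 (adjusted p = 0.79), the only one of 17 with no overlap, beside 7.6% of all genes. Groups without overlap were found for no cell cycle gene in the Hmgn2-/- brain (1.06% of all genes), the Hmgn2-/- liver (1.9%) or the double mutant liver (6.36%). Prc1 was at 0.23 and Plk1, the polo-like kinase gene, at -0.25 in the Hmgn2-/- brain, and Mcm4 at -0.25 in the Hmgn2-/- liver. Mcm2, another helicase subunit gene, was at -0.31 in the Hmgn2-/- brain. In the double mutant liver Plk1 was at 0.28 and Mcm4 at 0.24 (adjusted p = 0.65 and 0.651). The interaction called none in brain (0.0109% of all genes) or liver (0.0262%), with Mcm4 in the liver at 0.49 ± 0.193 (adjusted p = 0.702).

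Between the wild types of the cohorts no cell cycle gene passed in brain (1.54% of all genes) or liver (1.35%). The nearest were Rrm1, the large ribonucleotide reductase subunit, at 0.46 ± 0.159 in brain (adjusted p = 0.141) and Cenpa at 0.41 ± 0.16 in liver (0.228), the latter with no overlap, beside 10.6% of all genes (10% in brain, where every cell cycle gene overlapped). These counts were 1 in brain and 1 in liver without the arrays that correlated least with the others. Those were C57BL/6 wild type replicate 2, Hmgn2-/- replicate 1 and double mutant replicate 1 in brain, and Hmgn2-/- replicate 2 in liver.

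Whether the change of a gene differed between the 4 organs was tested in 1 fit of all 64 arrays. No cell cycle gene passed for Hmgn2-/- (0.088% of 11366 genes) or for Hmgn1-/-n2-/- (0.792%). The changes in the Hmgn2-/- thymus are therefore not shown to differ from those in the other organs.

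Further cell cycle genes on the array, outside the 42, also moved in both directions in the Hmgn2-/- thymus, where 15.5% of all genes were called. The counts of the lists below are to be read against that share. Of 35 tested genes of a replication list 4 rose and 5 fell. Prim1, the primase catalytic subunit (0.65 ± 0.126, adjusted p = 0.00318), Pole, a leading strand polymerase (0.46, 0.00171), Rpa1 and Cdc7 rose. Rpa3, the small subunit of the single-strand binding complex (-0.63 ± 0.0995, 0.000932), Ung (-0.55), Orc6 (-0.47), Tipin and Pold2 fell. Subunits of 1 complex thus moved apart, with Rpa1 at 0.39 and Rpa3 at -0.63.

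Of 48 tested genes of a mitosis list 6 rose and 5 fell. Anln, the anillin gene of the cleavage furrow, rose by 0.54 (adjusted p = 0.00753), and Kif4, a chromosome motor gene, by 0.44. H2ax and H2az1, genes of histone variants, fell by 0.70 and 0.38, and Stmn1, a microtubule destabiliser, by 0.41. Of 24 genes of the G1 and RB-E2F list Cul1 and Rb1, the retinoblastoma gene, rose by 0.55 and 0.50, and Cdc34 fell by 0.42. Of 25 genes of the inhibitor and exit list 3 rose and 3 fell. Txnip, which encodes a thioredoxin-binding protein, rose by 0.70 (adjusted p = 0.00121) and Ccng1 by 0.37. Gadd45a, a damage response gene, fell by 0.65 (0.000741) and Cdkn2d, a CDK4/6 inhibitor, by 0.61 (0.00598). In the spleen no gene of the 4 lists passed in either mutant, with all libraries entered as labelled. In the double mutant thymus 29 of 35 replication and 39 of 48 mitosis genes were higher, with medians of 0.107 and 0.11 beside 0.00762 for all genes.

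In the double mutants only 2 genes of these lists passed in any organ, Ccng2 and Pttg1, and in both it was the C57BL/6J wild types that stood apart. Ccng2 encodes cyclin G2, which is known for being high in resting cells, and Pttg1 encodes securin, the inhibitor of sister chromatid separation. In the thymus Ccng2 read 6.95, 6.93, 7.00 and 6.87 in the C57BL/6J wild types and 9.47, 8.83, 9.35 and 8.85 in the double mutants. It read 9.43, 9.51, 9.60 and 9.40 in the C57BL/6 wild types and 9.97, 9.40, 9.19 and 9.13 in Hmgn2-/-. The C57BL/6J wild types lay below all other arrays, and 2 of the 4 double mutants lay below every array of the C57BL/6 cohort. The double mutant difference was 2.18 ± 0.17 (adjusted p = 1.42e-06), and the C57BL/6J minus C57BL/6 wild-type difference was -2.55 ± 0.17 (4.04e-07).

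Ccng2 also rose in the double mutant brain, by 1.82 ± 0.193 (adjusted p = 0.000105). There the double mutants read 6.92, 6.13, 6.66 and 6.56, below all C57BL/6 wild types (mean 7.55) and all Hmgn2-/- arrays (mean 7.56). In the liver the probe was not detected in any C57BL/6J wild type, and the double mutants were at least 2.41-fold higher (adjusted p = 0.00384). In the spleen the libraries labelled C57BL/6J wild type read 6.03, 6.54, 6.45 and 8.98 and those labelled Hmgn1-/-n2-/- read 5.96, 7.97, 8.27 and 8.08. The 8.98 and the 5.96 are those of the 2 libraries whose Hmgn2 level went against the label. With them the difference was 0.57 (adjusted p = 0.726) and without them 1.77 (0.00753).

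Pttg1 was called lower in the double mutant thymus and higher in the double mutant liver, the latter close to the detection limit. In the thymus it read 6.61, 6.73, 6.57 and 6.92 in the C57BL/6J wild types and 5.53, 5.58, 5.26 and 5.59 in the double mutants, a fall of -1.22 ± 0.117 (adjusted p = 1.86e-05). The C57BL/6 wild types were at 5.42, 5.44, 5.40 and 5.01. In the liver the C57BL/6J wild types were at 4.24 to 4.27 and undetected, and the double mutants at 4.78 to 5.26, of which 1 was detected. The test called the difference (adjusted p = 0.00418), but no fold is given so close to the detection limit. The double mutant effect on Pttg1 differed between the organs (F test over 4 organs, adjusted p = 2.91e-13), and that on Ccng2 was not shown to (adjusted p = 0.231). Ccng2 lies at chr5:93267573-93276231 and Pttg1 at chr11:43420244-43427463 (GRCm38.p6), away from Hmgn1 on chromosome 16 and Hmgn2 on chromosome 4. Each was measured by 1 probe, and sequence differences between strains under that probe were not tested.

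**Figure D5:**
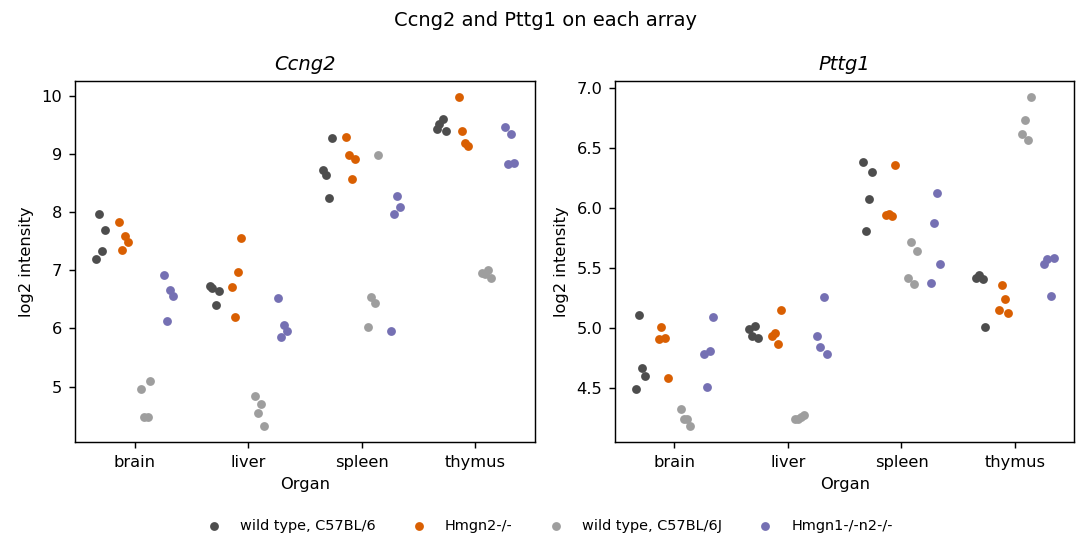
Normalized log2 intensity (vertical) of Ccng2 and Pttg1 in 4 organs, normalized within each organ, with 1 point per array and 4 arrays a labelled group. The C57BL/6J wild types are low for Ccng2 in all organs except for 1 spleen library at 8.98, and for Pttg1 they are high in the thymus and low in the liver.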

How the data were processed

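Labelled cRNA of 64 organ samples was hybridised to Illumina bead arrays of 1 colour. The authors deposited non-normalized probe intensity values and detection p-values for every array, exported with GenomeStudio 2011.1 per the submitters' processing notes, and a value table of normalized intensity, which was used only as an alternative. Array number limits the precision, and p-values rest on the spread within groups of 4 mice, pooled over all groups in a fit.

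Intensities were background-corrected and quantile-normalized on the log2 scale within each organ by the neqc function of limma 3.58.1 (R 4.3.3), with an offset of 16. Probes with a detection p under 0.01 on at least 4 of 16 arrays were kept, the brightest probe stood for its gene, and gene names came from the platform annotation, which leaves 1719 probes unnamed. Group means were fitted over the 16 arrays of an organ with empirical Bayes variances, and p-values were Benjamini-Hochberg adjusted over all genes tested. Organs were compared over 32 wild-type arrays, and organ effects over 64 arrays. Neither of these reported fits had a mouse term, so organs of the same mouse were treated as independent. The mouse as a random block was entered only as an alternative. The estimated correlation within a mouse was 0.021 for the organ effects and -0.00651 over the wild types. The fit was tested on simulated data.

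The members and lists were chosen with earlier results of these data known. Genes named are the members past the threshold, or else those with the smallest p. The part of that rule on the highest and lowest levels was not used, since levels of different probes are not comparable, and other genes given with values were chosen after these were seen. A lower bound sets the bright group's mean against, per array, the higher of the lowest detected signal and the dim probe's own. Replicate numbers did not pair the samples: in no comparison did every pair correlate above 0.1. The alternatives varied background, scaling, filter, probe choice, variance model, arrays entered and the block.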

Additional observations from a re-analysis of the deposited data

Results flagged for a closer look

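Within groups, 4 of 82 sets of 4 arrays had 1 array far from the others, close to the 1 in 20 that chance gives. Hmgn2-/- liver replicate 1 had a Plk1 level of 5.01 on the log2 scale, the next being 4.72. One Hmgn2-/- spleen array, replicate 3, stood apart for Pcna at 7.71 (next 6.91) and for Cdc25c at 6.19 (next 5.41), and this is the array with the highest cell cycle median of the spleens. A library labelled C57BL/6J wild type had an Ndc80 level of 7.62 in the spleen, the next being 7.00.

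The double minus single mutant difference passed for 6 genes of the further lists, 1 of them in 2 organs (limma interaction, each mutant against its own wild types). Of all genes 1.74% passed in the thymus and 0.0109% in the brain. The strain label differs between the cohorts, so this difference cannot be assigned to the deletions. For Ccng2 and Pttg1 in the thymus it was the C57BL/6J wild types that stood apart. In the thymus these were Ung (adjusted p = 0.03), Orc6 (0.0311), Rpa3 (0.044), H2ax (0.0491), Pttg1 (0.00435) and Ccng2 (0.000231), with differences of 0.65, 0.56, 0.60, 0.94, -1.12 and 2.24. In the brain it was Ccng2 again, at 1.80 (adjusted p = 0.0313). Under 25 alternatives the call held in 14 for Ung, 15 for Orc6, 9 for Rpa3, 6 for H2ax and 11 for Ccng2 in the brain, while Pttg1 and Ccng2 in the thymus passed in all that were run. Ung, Orc6, Rpa3 and H2ax had fallen in the Hmgn2-/- thymus. The double mutant effect on Pttg1 differed between the organs (F test, adjusted p = 2.91e-13).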

How the results depend on the processing

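No value changed sign past the threshold, and 455 of 475 recomputed counts of called cell cycle genes lay within 1.5 times the reported count. Among comparisons within an organ, only the Hmgn2-/- thymus had a reported count above 0, so much of this agreement is between counts of 0. In the Hmgn2-/- thymus, where 6 were called, leaving out 1 array gave 2 to 11, the 8 arrays alone gave 0, and the replicate block gave 3, although the replicate numbers did not pair the samples. In the double mutant thymus 1 was called with array weights. For the difference of the 2 effects in the thymus, 1 was called with normexp, 1 without the filter, 2 with array weights and 0 to 4 on leaving out an array. Between wild types 1 was called in brain under median scaling, 1 in liver with array weights, and 1 in each without the low-correlation arrays. Only probes detected on every array left 5 members for the organs, of which 5, 5, 5 and 4 were called, and median scaling gave 31 between brain and liver. The cause was not tested in these cases. Of 1925 recomputed tests of single cell cycle genes 38 lost and 11 gained the call. Of 1490 for the further genes 215 lost and 9 gained it. Blocks otherwise moved no count of called cell cycle genes. Dim probes limit brain and liver, where 22 and 24 of the 39 genes could not be tested.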

Other observations

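Between the wild types of the cohorts, 2 further genes passed outside the thymus besides Ccng2 and Pttg1. Kif22, a chromosome motor gene, was higher in the C57BL/6J brain by 0.80 ± 0.155 (limma, adjusted p = 0.0142), and Cul1, the ubiquitin ligase scaffold gene, was lower in the C57BL/6J liver by -0.57 ± 0.137 (adjusted p = 0.0487). The Kif22 call held in 15 of 18 alternatives and that of Cul1 in 7 of 18, where its adjusted p reached 0.176. Cul1 was also among the genes that rose in the Hmgn2-/- thymus.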
